A study of Mus musculus with 2 samples.

Results

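Type A intercalated cells, the acid-secreting cells of the renal collecting duct, were taken from droplet single-cell RNA profiles of injured mouse kidneys. A cell was included with at least 2 unique molecular identifiers (UMIs, each counting 1 captured transcript) of Atp6v1g3, at least 1 of Slc4a1, and 0 of Slc26a4, the type B marker, and 0 of Ptprc, the leukocyte marker. This gave 177 of 19478 retained cells, 132 of 9452 in the control library and 45 of 10026 in the haplodeficient library. The control library came from mice without Cre (Cre-). The haplodeficient library came from Cdh5-CreERT2; Phd3f/+ mice, which carried 1 floxed Phd3 allele and a tamoxifen-inducible Cre driven by the promoter of Cdh5, a gene of endothelial cells, so the cells described here were not the stated target. Both groups had 1 renal artery clamped and released, received 4 injections of tamoxifen and were analysed at day 14, in batch 1. The labels do not say whether the control mice carried the floxed allele, or how many animals made up a library. Each group was a single library, so the groups could not be tested against each other. Intervals in parentheses, unless said to run from the lowest to the highest cell, are exact 95% intervals for counting error only, and cells of 1 library are not replicates.

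Type A cells pump protons into the urine through a vacuolar-type ATPase (V-ATPase) on the apical side. The proton comes from hydration of carbon dioxide by carbonic anhydrase, and the bicarbonate left behind leaves the cell at the basolateral side through the anion exchanger AE1, encoded by Slc4a1. The V-ATPase has a cytosolic V1 sector that splits ATP and a membrane V0 sector that carries the proton, and several of its subunits have forms used mainly by intercalated cells. Ammonia, which binds protons in the urine, passes through the channel proteins Rhcg and Rhbg. FOXI1 is a forkhead transcription factor required for the intercalated cell fate and for V-ATPase subunit genes.

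Promoter sequence is shown for 3 genes on which the description turns: the kidney V1 subunits Atp6v1b1 and Atp6v1g3, and Aqp6, an anion-permeable water channel of type A cells that the selection did not use. The bases come from RefSeq on GRCm38.p6 and end before the gene start. They lie on the plus strand at chr6:83742767-83742989 for Atp6v1b1, chr1:138273488-138273737 for Atp6v1g3 and chr15:99600950-99601199 for Aqp6. Capitals mark the forkhead motif TGTTTAC, searched together with its reverse complement GTAAACA over the 250 bases before each RefSeq start.
Atp6v1b1: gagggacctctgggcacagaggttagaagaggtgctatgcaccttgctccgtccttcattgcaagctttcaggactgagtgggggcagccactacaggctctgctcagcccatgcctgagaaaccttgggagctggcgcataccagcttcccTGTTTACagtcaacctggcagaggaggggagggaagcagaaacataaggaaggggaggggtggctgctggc
Atp6v1g3: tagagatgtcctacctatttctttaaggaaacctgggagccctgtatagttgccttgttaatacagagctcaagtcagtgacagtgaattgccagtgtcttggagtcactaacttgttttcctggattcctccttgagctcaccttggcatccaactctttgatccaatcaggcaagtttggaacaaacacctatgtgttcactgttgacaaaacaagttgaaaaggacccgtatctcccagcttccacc
Aqp6: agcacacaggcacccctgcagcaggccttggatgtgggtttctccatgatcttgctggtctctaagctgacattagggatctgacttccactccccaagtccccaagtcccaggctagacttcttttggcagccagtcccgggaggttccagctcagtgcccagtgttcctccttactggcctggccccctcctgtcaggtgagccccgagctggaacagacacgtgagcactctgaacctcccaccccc
The motif occurred once, 98 bases before the RefSeq start of Atp6v1b1, and in neither of the other sequences. Of the V-ATPase list, 22 of 32 genes had an entry in the promoter table and 1 of them held the motif, as did 0 of the 14 bicarbonate and ammonium genes with an entry. Over all 27025 genes of the table the share was 3.54%. A match is a description of letters and not a binding site.

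The 132 control cells held 2522750 UMIs and the 45 haplodeficient cells 958859, with medians of 16576 and 13724 UMIs and of 4729 and 4432 genes per cell. The libraries as a whole differed in depth (medians of 9160 and 5861.5 UMIs per retained cell) and had 28 cell barcodes in common. The share of UMIs from mitochondrial genes was higher in the control library, with medians of 10.2% against 2.72% over all retained cells and of 10.7% against 5.25% over type A cells. Free RNA was estimated from proximal tubule markers, in UMIs summed over the cells. The estimate was 12.4% of UMIs for control and 2.56% for haplodeficient type A cells. The estimates from single markers ran from 7.53% to 20.7% and from 0% to 19.8%. Proximal tubule genes took a median of 0.0226% of UMIs per control cell, but 3.21% in the highest cell, against 0.00271% and 0.0645% in the haplodeficient cells. In the free RNA itself these genes summed to 17281.5 CPM in the control and 1463 CPM in the haplodeficient library. A few cells rich in these genes can raise the summed estimate, and no share per cell was estimated. The cells with the highest doublet scores were set at 7.56% of all control and 8.02% of all haplodeficient retained cells. Among them were 19 of the 132 control (14.4%) and 2 of the 45 haplodeficient type A cells (4.44%). Type B cells had shares of 14.7% and 16.3%.

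The label was checked on genes that the selection did not use. Aqp6 had a UMI in 124 of 132 control and 37 of 45 haplodeficient cells. After each cell was thinned to 1000 UMIs, the shares with an Aqp6 UMI were 54.5% (45.7 to 63.2) and 37.8% (23.8 to 53.5). In cells with at least 2 Ptprc UMIs, which should lack the gene, they were 0.758% and 0.269% (3.41% and 1.504% unthinned), at median depths of 6525.5 and 4816 UMIs. Kit, a receptor tyrosine kinase, stood at 282 CPM (UMIs of the gene per 1000000 UMIs, summed over the cells) in control and 300.4 CPM in haplodeficient type A cells. In all other retained cells it stood at 14.2 and 18.7 CPM. Dmrt2, a transcription factor found in type A cells, stood at 97.1 and 114 CPM, against 5.62 and 7.22 CPM elsewhere. Hmx2, a transcription factor of type B cells, had 1 UMI in 1 of 132 control cells and none in the 45 haplodeficient cells, a count of 0 that allows a share of cells with a UMI of up to 6.67%. Insrr, a receptor of the insulin receptor family and a type B marker, had a UMI in 3 and 2 cells. The cells therefore carried the type A markers and had next to none of these 2 type B markers. Slc4a9, the type B bicarbonate transporter AE4, was nonetheless present at 373 and 424 CPM, in 120 and 41 cells, below its 818 and 684 CPM in type B cells.

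The edge of the selection lay mostly in Slc4a1, whose counts were small. Slc4a1 had exactly 1 UMI in 29 control and 22 haplodeficient type A cells. Just outside, with 0 Slc4a1 UMIs and every other condition met, were 156 and 152 cells. Aqp6 in those excluded cells was at 154 and 114 CPM, with a UMI in 41.7% and 39.5% of them. In the included cells with 1 Slc4a1 UMI it was at 474 and 264 CPM, and in those with 2 or more at 869 and 478 CPM. For Atp6v1g3 the edge was thin: 2 control cells had exactly 2 UMIs and 1 control cell was excluded with exactly 1. The Ptprc condition removed 54 control and 27 haplodeficient cells, which were deep (medians of 31860.5 and 34342 UMIs) and of which 33.3% and 22.2% had doublet scores among the highest.

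Egln3, the gene of PHD3 that the Cre targets in endothelium (ENSMUSG00000035105, minus strand of chromosome 12 at 54178981 to 54203860, GENCODE M21 on GRCm38), was sparse in these cells. It had 21 UMIs in 15 of 132 control cells, or 8.32 CPM (5.15 to 12.7), and 1 UMI in 1 of 45 haplodeficient cells, or 1.04 CPM (0.0264 to 5.81). The CPM ratio of haplodeficient over control was 0.125 (0.00303 to 0.779). In type B cells it was 0.765 (0.197 to 2.65) and in principal cells 1.10 (0.474 to 2.34). Within the free RNA itself the gene was at 1.41 CPM in the control and 3.09 CPM in the haplodeficient library.

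The V-ATPase genes passed a 2-fold size rule at a share near that of all genes, from which nothing particular to the pump is read. Differences between libraries are log2 ratios, the haplodeficient over the control level, each with 5 CPM added. Over the 3868 genes eligible at a mean of 50 CPM and 30 UMIs, the median log2 ratio was 0.06, and 122 genes (3.15%) passed a 2-fold size rule, an absolute log2 ratio of 1 or more, which is not a test. Of the 33 V-ATPase genes listed, 23 were eligible and 0 passed, against that background of 3.15%. The V-ATPase ratios ranged from -0.60 to 0.70, with 9 above and 14 below 0 and a median of -0.12. Other choices of cells brought single subunits to the 2-fold size: Dmxl1, of the pump's regulatory complex, was at -1.07 without the Aqp2-bearing cells, and Atp6v0b, a V0 subunit, at 1.08 with at least 3 Slc4a1 UMIs. Without Atp6v1g3, which the selection used, the median over 22 genes was -0.13. Summed over all 32 genes in the files, the level was 10035 CPM among control and 10960 CPM among haplodeficient cells. Per cell, V-ATPase transcripts took from 0.414% to 2.64% of UMIs in control cells (median 1.11%) and from 0.524% to 2.87% in haplodeficient cells (median 1.39%), so the cells of both libraries overlapped over nearly the whole range.

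Among the forms used mainly by intercalated cells, 4 of 5 ratios were below 0. Atp6v1b1, the B subunit whose human counterpart is mutated in distal renal tubular acidosis with deafness, stood at 276 CPM (256 to 298) and 238 CPM (208 to 271). Atp6v0a4, the kidney form of the proton-carrying a subunit, stood at 449 CPM (423 to 476) and 405 CPM (365 to 447). Atp6v0d2, a d subunit of V0, stood at 451 CPM (425 to 478) and 393 CPM (354 to 435). For these 3 genes the intervals of both libraries overlapped over all type A cells. Without cells with at least 2 Aqp2 UMIs, Atp6v1b1 was at 368 CPM (331 to 408) and 255 CPM (221 to 293), with intervals apart. Atp6v0a4 and Atp6v0d2 then had log2 ratios of -0.33 and -0.58. With at least 3 Slc4a1 UMIs the log2 ratios of Atp6v1b1, Atp6v0a4 and Atp6v0d2 were instead 0.49, 0.40 and 0.64. Atp6v1c2, a V1 subunit that links the sectors, was lower in the haplodeficient cells, at 148 CPM (125 to 175) against 227 CPM (209 to 247), a ratio of 0.652. Atp6v1g3, used for the selection and so a description only, stood at 1574 and 2027 CPM. Its median was 16.9 UMIs per 10000 in control cells, with 0.962 in the lowest and 69.6 in the highest cell, and 25.4 in haplodeficient cells, with 1.90 and 103.

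The subunits shared with other cells split in both directions. Atp6v0b and Atp6v0c encode proteolipids of the rotating membrane ring. In control cells Atp6v0b was at 488 CPM (461 to 516), in haplodeficient cells at 796 CPM (740 to 854), the highest ratio of the list at 1.63. Atp6v0e, a small V0 subunit, stood at 674 and 1017 CPM (ratio 1.51). The V1 stalk subunits Atp6v1f and Atp6v1g1 had ratios of 1.42 and 1.45. Atp6v1a, the catalytic subunit, went the other way, at 1002 CPM (963 to 1042) against 734 CPM (681 to 791), a ratio of 0.733. Dmxl1, a partner in V-ATPase assembly, had a ratio of 0.676. The split was not particular to type A cells. In type B cells the ratios were 1.37 for Atp6v0b, 1.38 for Atp6v0e, 1.35 for Atp6v1f and 1.40 for Atp6v1g1. There Atp6v1a was at 0.723 and Dmxl1 at 0.613. In principal cells these genes had the same directions, with Atp6v0b at 1.45, Atp6v1a at 0.471 and Dmxl1 at 0.786 (0.605 to 1.01). The general forms as a group had a median of 0.05 and the intercalated forms one of -0.19, and no difference between these groups was tested. Without cells with at least 2 Aqp2 UMIs the medians were -0.15 and -0.52, and with at least 3 Slc4a1 UMIs 0.46 and 0.49.

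**Figure D1:**
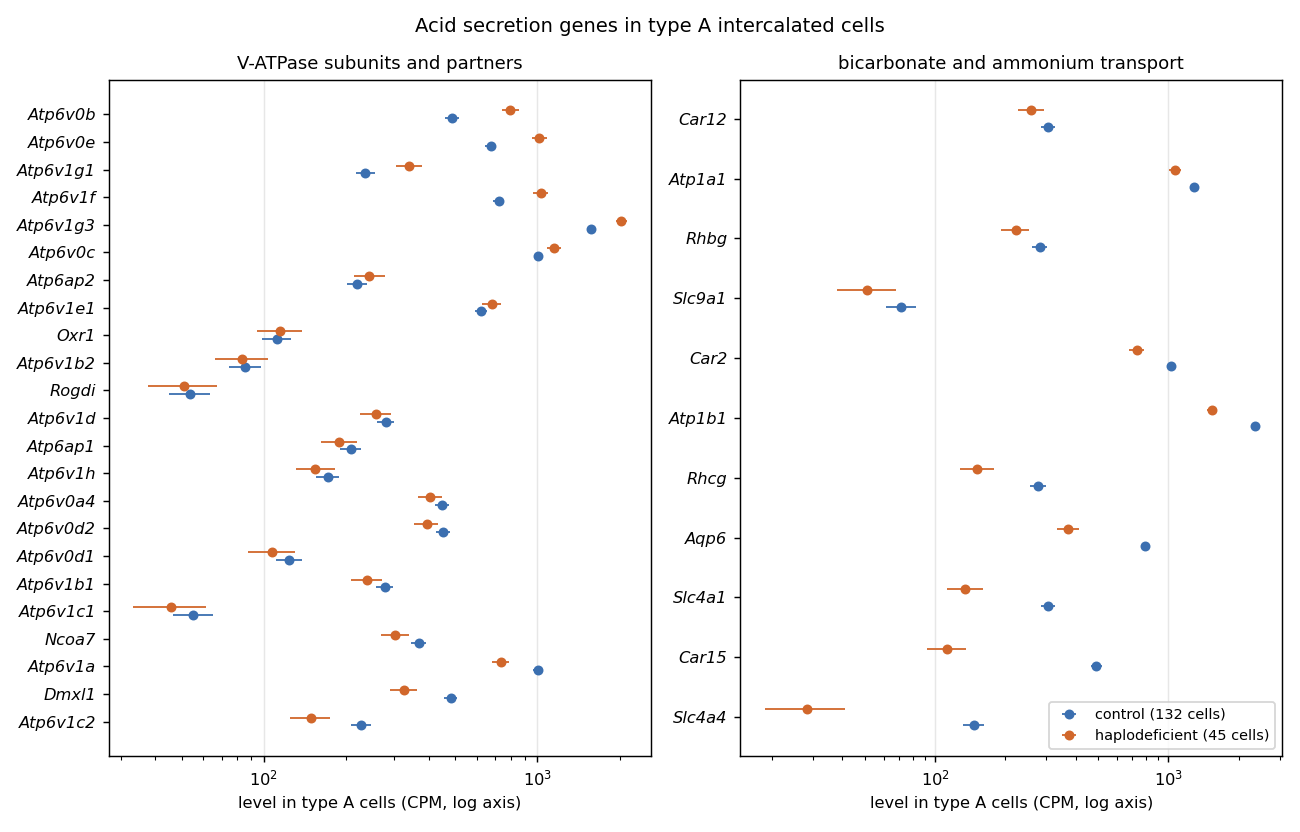
Levels of the eligible V-ATPase genes (left) and bicarbonate and ammonium transport genes (right) in type A cells, in CPM on a log axis, ordered by the log2 ratio, with control in blue, haplodeficient in orange and exact Poisson 95% intervals as bars. The 23 pump genes lie on both sides, within 2-fold, and the 11 transport genes are all lower in the haplodeficient library.

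The eligible genes that handle bicarbonate and ammonium had lower levels in the haplodeficient cells. Of 26 genes listed 11 were eligible, all 11 had a log2 ratio below 0, and the median was -0.61. Past the 2-fold rule were 4 genes in the lower direction (Slc4a4, Car15, Slc4a1 and Aqp6) and 0 in the higher, where 1.42% of all eligible genes passed in the lower direction. Without Slc4a1, which the selection used, 3 of 10 passed and the median was -0.55. Per cell the list took from 0.314% to 1.29% of UMIs in control cells (median 0.802%) and from 0.231% to 1.19% in the haplodeficient cells (median 0.494%). The ranges overlap, while the upper quartile of the haplodeficient cells, 0.628%, lay near the lower quartile of the control cells, 0.607%.

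Slc4a1 (ENSMUSG00000006574, minus strand of chromosome 11 at 102348824 to 102366203, GENCODE M21 on GRCm38) had 769 UMIs in control and 129 in haplodeficient cells, or 305 CPM (284 to 327) and 135 CPM (112 to 160). Because at least 1 Slc4a1 UMI was required, these values describe the selection. Aqp6 (ENSMUSG00000043144, plus strand of chromosome 15 at 99601400 to 99605477) was not used, and stood at 796 CPM (761 to 831) and 371 CPM (334 to 412), a ratio of 0.467 (0.416 to 0.523). Single control cells held from 0 to 29.7 Aqp6 UMIs per 10000 with a median of 7.67, and haplodeficient cells from 0 to 29.9 with a median of 3.35. The single highest cell was thus similar in both libraries, while the haplodeficient library had the lower median and a larger share of its cells at the low end. The largest contribution of 1 cell to the Aqp6 UMIs was 4.29% in control and 10.96% in haplodeficient cells.

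**Figure D2:**
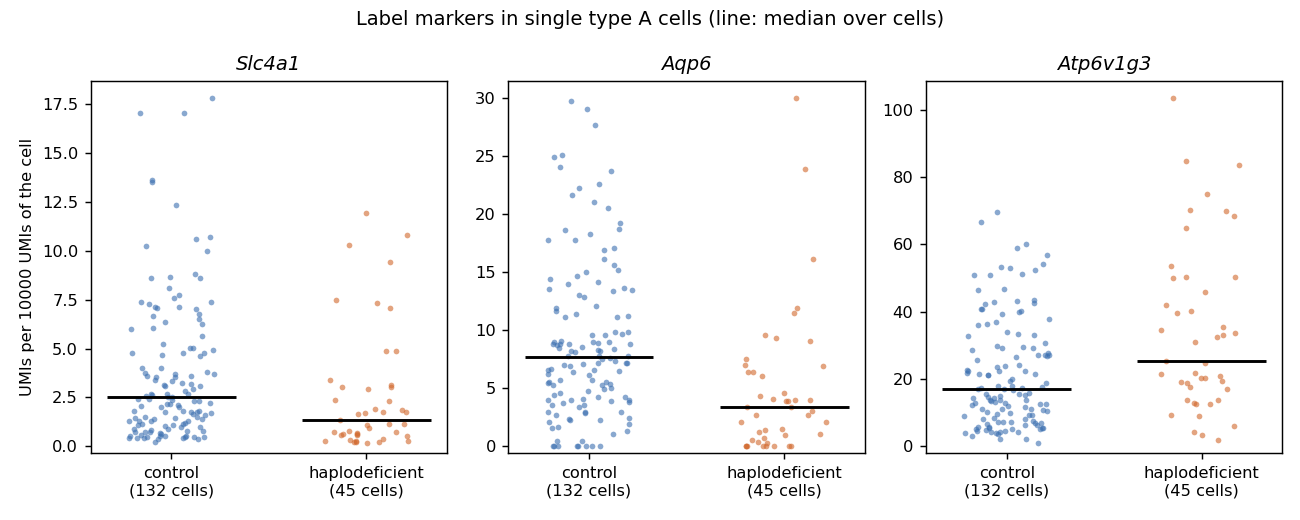
UMIs of Slc4a1, Aqp6 and Atp6v1g3 per 10000 UMIs in each type A cell, 132 control and 45 haplodeficient, with the median over cells as a line. The Slc4a1 and Atp6v1g3 panels show genes the selection used, and the Aqp6 medians are 7.67 and 3.35 with ranges that overlap.

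Rhcg, the apical ammonia channel, had a level of 276 CPM (256 to 298) in control cells against 151 CPM (128 to 178) in haplodeficient ones, a ratio of 0.547 (0.454 to 0.655). Its basolateral relative Rhbg was at 280.3 and 221 CPM. Car2, the cytosolic carbonic anhydrase that supplies the proton, was at 1022 CPM (982 to 1062) and 730.03 CPM (677 to 786), a ratio of 0.715 (0.656 to 0.777). Car12, a membrane carbonic anhydrase, was at 305 and 258 CPM, with a ratio of 0.844. Atp1b1, the beta subunit of the sodium pump, was at 2358 and 1538 CPM. All of these were lower in the haplodeficient cells, and none of these 5 reached the 2-fold rule. With at least 3 Slc4a1 UMIs required, which left 86 control and 12 haplodeficient cells, Car2 (log2 ratio 0.56), Car12 (1.18) and Rhbg (0.47) were instead higher in the haplodeficient cells.

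Car15, a membrane-bound carbonic anhydrase, had a larger difference, at 492 CPM (465 to 520) and 113 CPM (92.4 to 136), but it was unevenly spread. It had a UMI in 71 of 132 control and 22 of 45 haplodeficient cells, and 1 cell held 28.7% of the haplodeficient UMIs. In the control it was at 739 CPM in cells with at least 2 UMIs of Aqp2, the principal cell water channel, and at 99.4 CPM in the rest. Without the Aqp2-bearing cells of both libraries the levels were 99.4 and 62.6 CPM, a ratio of 0.629 (0.438 to 0.894). Slc4a4, the bicarbonate cotransporter of the proximal tubule, was at 147 and 28.2 CPM, a log2 ratio of -2.19. That ratio was -1.502 without the cells with the highest doublet scores and -1.34 with free RNA subtracted. Among genes under the eligibility limit, Slc26a7, another basolateral anion exchanger of type A cells, had 29 UMIs in control and 5 in haplodeficient cells. Its levels were 11.5 and 5.21 CPM. Atp4a, a subunit of the proton-potassium pump, had 47 and 14 UMIs, or 18.6 and 14.6 CPM.

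How far Slc4a1 and Aqp6 differed depended on how the cells were defined. When Aqp6 took the place of Slc4a1 in the selection, 189 control and 97 haplodeficient cells qualified, and Slc4a1, then unused, was at 212 CPM (197 to 227) and 54.0 CPM (44.6 to 64.8), a ratio of 0.255 (0.208 to 0.310). When neither gene was required, 288 and 197 cells qualified, with ratios of 0.231 (0.190 to 0.278) for Slc4a1 and 0.388 (0.356 to 0.423) for Aqp6. Both of these definitions were added after the data were seen. With at least 3 Slc4a1 UMIs required, 86 of 132 control and 12 of 45 haplodeficient cells remained. Slc4a1 was then at 411 and 412 CPM, and Aqp6 at 932 and 854 CPM with a ratio of 0.916 (0.779 to 1.07). Because this choice selects on Slc4a1 itself, the similar Slc4a1 levels describe the selection and not a lack of difference between libraries. With every cell thinned to 1000 UMIs before the selection, 18 and 11 cells remained and both ratios were 0.686, with intervals of 0.502 to 0.930 for Slc4a1 and 0.546 to 0.857 for Aqp6. Given the same weight for every cell, the log2 ratio was -0.51 for Slc4a1 and -0.90 for Aqp6, short of the 2-fold rule. Dropping the cells with the highest doublet scores left the Aqp6 ratio at 0.473, and a mitochondrial limit of 25% left it at 0.472.

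**Figure D3:**
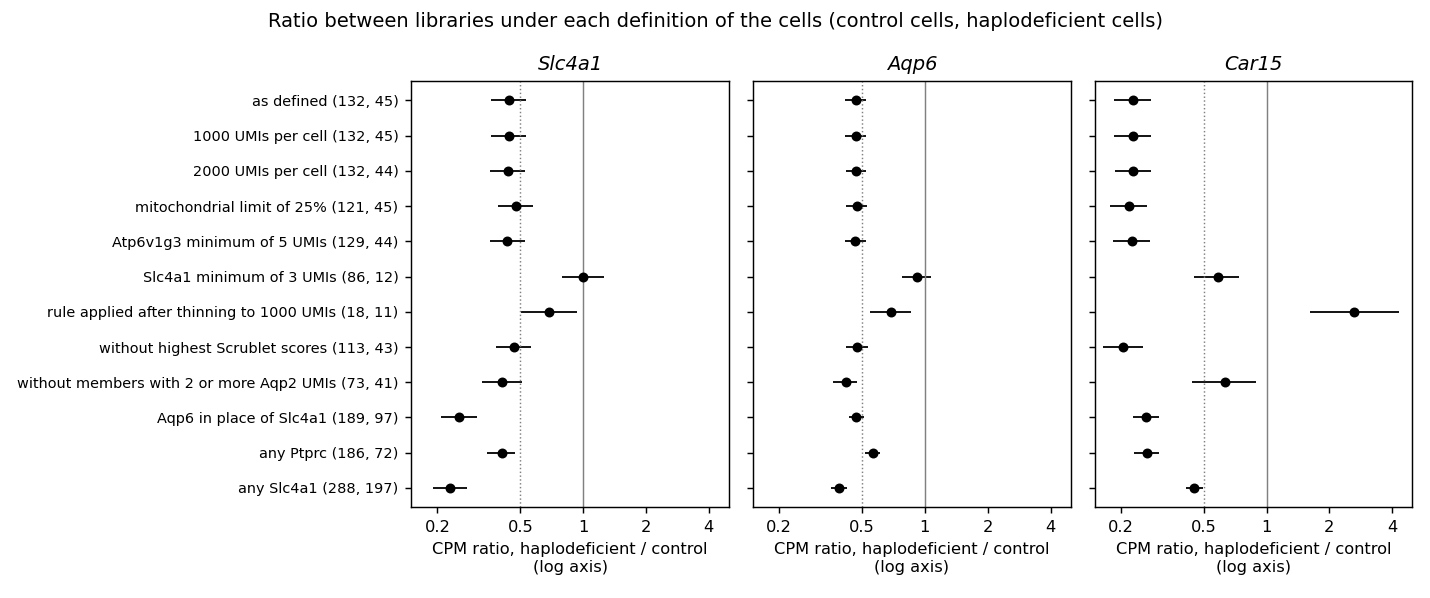
CPM ratio of haplodeficient over control for Slc4a1, Aqp6 and Car15 under each definition of the cells, with exact conditional binomial 95% intervals on a log axis, the number of cells in each library in brackets, a solid line at 1 and a dotted line at 0.5. The Slc4a1 and Aqp6 ratios are under 0.6 in all definitions but those with at least 3 Slc4a1 UMIs and with thinned cells, and Car15 lies above 1 in the thinned definition.

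Principal cell transcripts were present in many control type A cells. The Aqp2 level was 1025 CPM (986 to 1065) in control cells but 112 CPM (91.5 to 135) in haplodeficient ones. At least 2 Aqp2 UMIs were found in 59 of 132 control cells (44.7%, 36.0 to 53.6) and 4 of 45 haplodeficient cells (8.89%, 2.48 to 21.2). In type B cells the shares were 38.0% and 23.8%. Free RNA accounted for an estimated 1.66% and 0.499% of the Aqp2 level. The 59 control cells were deeper than the other 73, with medians of 23568 and 11158 UMIs, and 10 of the 59 and 9 of the 73 had doublet scores among the highest. They carried more of the other principal cell genes: Aqp3, a basolateral water channel, was at 463 against 53.3 CPM, Scnn1g, a sodium channel subunit, at 162 against 36.9 CPM, and Hsd11b2, the enzyme that inactivates cortisol, at 1904 against 265 CPM. They had less of the intercalated genes Atp6v1g3 (1021 against 2451 CPM), Foxi1 (178 against 406 CPM) and Kit (213 against 391 CPM). Aqp6 (725 against 907 CPM) and Slc4a1 (275 against 351 CPM) differed less. Whether these cells were mixtures of 2 cells or single cells with both programmes was not tested.

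**Figure D4:**
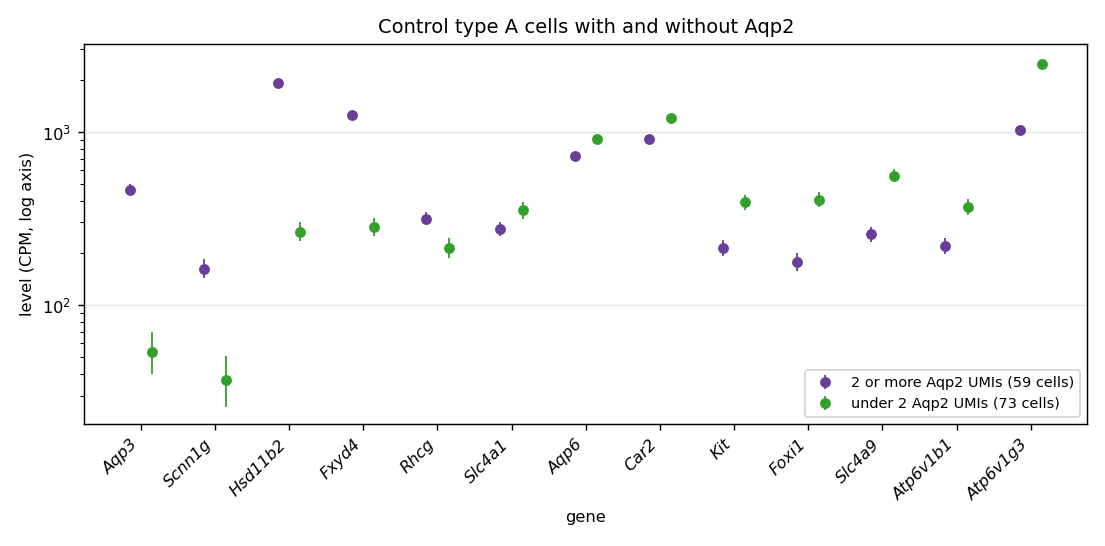
Levels of principal and intercalated cell genes in control type A cells with at least 2 Aqp2 UMIs (59 cells, purple) and with fewer (73 cells, green), in CPM on a log axis with exact Poisson 95% intervals. Hsd11b2 is at 1904 against 265 CPM and Atp6v1g3 at 1021 against 2451 CPM.

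Without the Aqp2-bearing cells, 73 control and 41 haplodeficient cells remained. The Aqp6 ratio was then 0.417 (0.364 to 0.475) and the Slc4a1 ratio 0.409 (0.329 to 0.507), as low as with them. The Rhcg ratio was 0.672 (0.530 to 0.848). Atp6v1g3 stood at 2451 and 2269 CPM, so its direction turned. The potassium channel genes Kcne1 and Kcnj10, which passed the 2-fold rule in the lower direction over all cells (log2 ratios of -1.28 and -1.09), turned to 0.30 and 0.34. Of the 8 eligible chloride and potassium channel genes the other 6 lay between -0.18 and 0.32.

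Type A cells made up a smaller share of the haplodeficient library. They were 1.40% (1.17 to 1.65) of control and 0.449% (0.328 to 0.600) of haplodeficient cells, a ratio of 0.321 (0.224 to 0.454). The share of leukocytes (at least 2 Ptprc UMIs) moved the other way, at 1056 and 2993 cells, which on its own lowers every other share. Cells with fewer than 2 UMIs of Lrp2, a proximal tubule gene, were 5989 of 9452 control and 9385 of 10026 haplodeficient cells. Cells with 2 or more were thus a smaller part of the haplodeficient library, which on its own raises every other share. Among cells with fewer than 2 Lrp2 UMIs, type A cells were 1.94% in control and 0.469% in haplodeficient. Set against type B cells, the control library had 1.02 type A cells per type B cell (0.797 to 1.31) and the haplodeficient library 0.563 (0.381 to 0.820), a ratio of 0.550 (0.345 to 0.871). Set against principal cells (at least 2 Aqp2 UMIs and 0 of the 4 genes of the type A rule) the values were 0.512 (0.412 to 0.633) and 0.523 (0.356 to 0.759). With Aqp6 in place of Slc4a1 there were 1.47 and 1.21 type A cells per type B cell, the same direction, and with neither required the direction turned, at 2.23 and 2.46. A smaller share of type A cells and less Slc4a1 per cell cannot be told apart here, since a cell without an Slc4a1 UMI is not counted.

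The transcription factors of intercalated cells showed smaller differences. Of 14 eligible genes 0 passed the 2-fold rule, 10 were below 0, and the median log2 ratio was -0.30. Foxi1 stood at 266 CPM (246 to 287) and 241 CPM (211 to 274) and Tfcp2l1, which acts with it in collecting duct cells, at 980 and 831 CPM. The largest differences were in Mecom (1188 and 758 CPM), Foxp1 (668 and 452 CPM), Ppargc1a, the coactivator of mitochondrial genes (359.9 and 245 CPM), and Gata3 (208 and 142 CPM). Over all type A cells, Kit, Dmrt2 and Foxi1 had intervals that overlapped between libraries. Without the Aqp2-bearing cells, Foxi1 was lower in the haplodeficient cells, at 406 CPM (367 to 448) against 269 CPM (234 to 308). Kit was then also lower, at 391 CPM (353 to 433) against 310 CPM (273 to 351). The Dmrt2 intervals still overlapped, at 133 CPM (111 to 158) and 126 CPM (103 to 154).

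Among 11 eligible genes of acid-base sensing and regulation 0 passed, with a median of -0.21. Oxgr1, the receptor for alpha-ketoglutarate, was at 174 CPM (158 to 191) and 105 CPM (85.8 to 128), and Ptger3, a prostaglandin receptor, at 99.5 and 59.4 CPM. Gprc5a, an orphan receptor, went the other way, at 57.1 and 97.0 CPM, as did the vasopressin receptor Avpr1a, at 48.8 and 75.1 CPM. Oxgr1 was on the list of type B genes, yet it was higher in type A than in type B cells of both libraries, by 2.19 times (1.86 to 2.59) in control and 1.57 times (1.21 to 2.04) in haplodeficient cells.

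Type B cells, selected by Slc26a4 in place of Slc4a1, numbered 129 and 80, and Aqp6, which neither selection used, was at 14.0 and 49.97 CPM there. In the control library Aqp6 was 56.9 times (41.3 to 80.7) higher in type A cells, in the haplodeficient library 7.43 times (5.99 to 9.28). Kit was 4.796 and 5.34 times higher, and Rhbg 2.79 and 2.38 times. Rhcg was 1.51 times higher (1.35 to 1.70) among control cells and 1.09 times (0.892 to 1.34) among haplodeficient ones. Car12 was lower in type A cells, at 0.524 and 0.572 of the type B level. The pump was shared: all 23 eligible V-ATPase genes lay within 2-fold of type B cells in both libraries, from -0.63 to 0.37 on the log2 scale. The transport list was also lower in haplodeficient type B cells, with a median of -0.37 over 9 eligible genes (0.03 over all eligible genes there), and in principal cells, with a median of -0.83 over 8. In type B cells Rhcg had a ratio of 0.756 (0.654 to 0.873), Car2 one of 0.803 (0.744 to 0.867) and Car15 one of 0.760 (0.701 to 0.823). Slc4a4 had a ratio of 0.267 (0.207 to 0.342) there. In principal cells the ratios were 0.483 for Rhcg, 0.440 for Car2, 0.584 for Car15 and 0.173 for Slc4a4.

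The 15 genes most above all other cells in both libraries were Slc4a1, Aqp6, Kit, Rhbg, Atp6v1g3, Dmrt2, Foxi1, 2610016A17Rik, Oxgr1, Pde1c, Pdlim3, Clnk, Atp6v1c2, Cpsf4l and Wscd2. The cells were chosen on 2 of these. Not all set them apart from type B cells: in the control library Atp6v1g3 was at 1574 CPM in type A and 1952 CPM in type B cells, Foxi1 at 266 and 286 CPM, and Atp6v1c2 at 227 and 254 CPM. Pdlim3, a cytoskeletal adaptor, stood at 140 and 150 CPM against 8.37 and 14.3 CPM in other cells. Clnk, an adaptor of immune receptor signalling, stood at 93.5 and 80.3 CPM against 4.14 and 6.11 CPM. The phosphodiesterase gene Pde1c stood at 420.2 and 338 CPM, close to type B cells in the control (389.9 CPM) and above them in the haplodeficient library (188 CPM).

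Interferon-induced genes were higher in haplodeficient type A cells as a group. Of 30 listed 15 were eligible, all 15 had a log2 ratio above 0, and 9 passed the 2-fold rule in the higher direction, in which 1.73% of all eligible genes passed. The list median was 1.17. Isg15, a ubiquitin-like protein, was at 43.2 CPM (35.5 to 52.1) and 166 CPM (141 to 194), and Oasl2, a relative of the antiviral OAS enzymes, at 40.8 and 127 CPM. Ifi27 was at 105 and 331 CPM and Rtp4 at 24.2 and 89.7 CPM. The Isg15 counts were uneven, with UMIs in 33 of 132 and 24 of 45 cells and 1 cell holding 29.4% and 30.2% of them. Per cell the list took a median of 0.165% of UMIs in control cells, from 0.00907% in the lowest to 1.15% in the highest cell, and 0.375% in the haplodeficient cells, from 0.0229% to 0.799%. The list was also higher in type B cells (median 0.96) and principal cells (median 1.51).

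Genes of antigen presentation on class I molecules followed, with 6 of 8 eligible genes past the rule in the higher direction, 0 in the lower and a median of 1.14. H2-D1 was at 357 CPM (334 to 381) and 902 CPM (843 to 964), H2-K1 at 463 and 1050.2 CPM, and Psmb8, an immunoproteasome subunit also on the interferon list, at 67.0 and 172 CPM. H2-D1, H2-K1 and H2-T23 belong to a family of similar genes, among which counts can be split uncertainly. The leukocyte list summed to 136 CPM in control and 181 CPM in haplodeficient cells, with 3 of its 12 genes at 0 UMIs in both and 1 eligible, Cd74, at 91.6 and 141 CPM. Ptprc was 0 in every cell by selection. The part of leukocyte RNA in these differences was not tested. With at least 3 Slc4a1 UMIs required (86 and 12 cells), the medians were 0.55 for the interferon and 0.09 for the antigen presentation list.

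Of 11 eligible genes of tubular injury 10 were above 0 and 2 passed, with a median of 0.86. The difference was smaller with at least 3 Slc4a1 UMIs required, where the list median was 0.06, Clu was at -0.12 and Lcn2 at 0.06. Clu, a secreted chaperone, was at 4164 and 7902 CPM, Krt18, an epithelial keratin, at 719 and 1311 CPM, and S100a6 at 339 and 646 CPM. Lcn2, an iron-siderophore binding protein released by injured tubules and by type A cells, was at 1141 CPM (1100 to 1183) and 2254 CPM (2160 to 2351). It came from 73 of 132 and 26 of 45 cells. Gdf15, a stress-induced hormone, was at 436 and 951 CPM, but 1 cell held 40.9% of its haplodeficient UMIs. With every cell given the same weight its log2 ratio was 0.33, against 1.12. Spp1, the gene of osteopontin, was the exception, at 5279 and 3896 CPM. On the antimicrobial list, Wfdc2, a protease inhibitor, was at 960 and 2168 CPM and Defb1, a defensin, at 2420 and 2278 CPM.

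Energy metabolism split by genome. Nuclear genes of oxidative phosphorylation were near the median of all genes, with 0 of 31 past the rule and a list median of 0.08. Of the 13 genes encoded in mitochondrial DNA 7 passed in the lower direction and 12 were below 0, with a median of -1.09. For mt-Nd3, a subunit of complex I, the values were 4626 and 1122 CPM. The higher mitochondrial share of the whole control library and its higher summed estimate of free RNA moved with this difference, and their part in it was not tested. Type B and principal cells had medians of -1.02 and -0.96 for the same list. Glycolysis genes had a median of -0.13, with 1 of 13, Hk2, past the rule in the higher direction. Among 6 eligible targets of hypoxia-inducible factors the median was -0.34 and 1 passed, Ndrg1, at 636 CPM (605 to 668) and 265 CPM (233 to 299.6). Without the Aqp2-bearing cells the log2 ratio of Ndrg1 was -0.12, against -1.25.

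**Figure D5:**
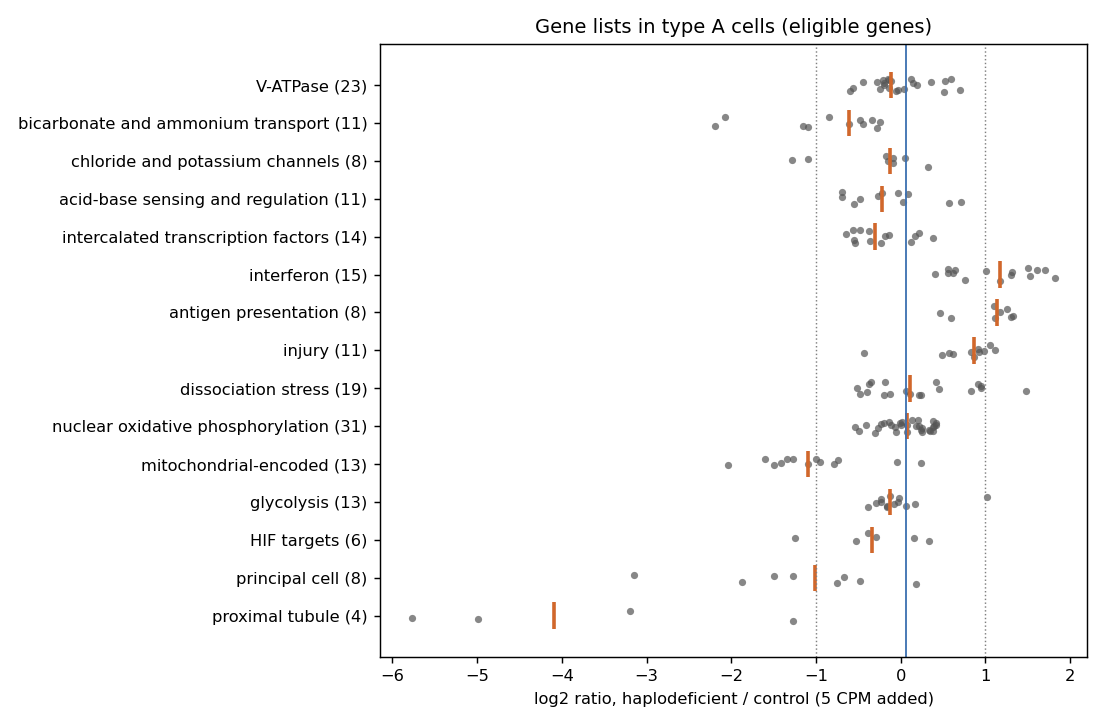
Log2 ratio of haplodeficient over control (5 CPM added) for each eligible gene of 15 lists in type A cells, with the list median as an orange bar, the median of all eligible genes as a blue line (0.06) and dotted lines at a 2-fold difference. The V-ATPase list is centred near the blue line, the bicarbonate and ammonium list lies below it (median -0.61) and the interferon list above it (median 1.17).

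The 12 highest log2 ratios over all eligible genes other than mitochondrial-encoded ones ranged from 1.57 to 2.28, and all 12 genes were also higher in haplodeficient type B and principal cells. They were Rpl29, Spink8, Gm47507, Iigp1, Tbc1d9, Isg15, Ly6a, Plac8, Bik, Rtp4, Ifi27 and Spink12. Spink8, of a family of protease inhibitors, was at 193 and 889.6 CPM in type A cells, 468 and 856 CPM in type B cells and 736 and 2377 CPM in principal cells. Ly6a, a cell surface protein, was at 826 CPM (791 to 862) and 2828 CPM (2723 to 2937), and Plac8 at 203 and 697 CPM. Rpl29 (85.6 and 436 CPM) encodes a ribosomal protein with many near-identical copies in the genome, so its counts are uncertain. Iigp1, an interferon-induced GTPase, drew 41.5% and 42.7% of its UMIs from 1 cell.

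The 12 lowest, from -5.77 to -2.08, included Kap, Aqp1, Gpx3, Cltrn, Spink1, Slc34a1, Aqp2, Acsm2, Ass1, Slc4a4 and Car15. All 12 were also lower in haplodeficient type B cells, and 11 of the 12 in haplodeficient principal cells. For 9 of the 12, free RNA came to an estimated share of over 50% of the control level. Several of the 12 are proximal tubule genes of the kind the free RNA estimate was read from. That estimate is therefore not independent of their levels, and a few cells rich in these transcripts can raise it. Kap, an androgen-regulated gene of the proximal tubule, was at 836 and 10.4 CPM. Aqp1, a water channel of the proximal tubule and thin limb, was at 112 CPM in the control and 0 in the haplodeficient cells, at least 35.9-fold lower when 3 counts over the group are taken as the limit. However, 1 control cell held 66.1% of its UMIs. The log2 ratio of Aqp1 was -4.55 over all cells but -1.25 without the cells with the highest doublet scores. It was -0.93 with cells thinned to 1000 UMIs before the selection.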

How the data were processed

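Deposited values were UMI counts per gene and barcode, unfiltered, made by the authors with Cell Ranger 4, per the file headers, on mm10, per the submitters' processing notes. The annotation is not given in the sources used here. Cells needed 500 UMIs, 200 genes and at most 50% mitochondrial UMIs. Members and gene lists were chosen with earlier results of these data known. The cells were selected on raw counts, so deeper cells qualify more readily. UMIs were summed over cells and scaled to CPM. Of 32285 features, 32158 (99.61%) matched GENCODE M21. Eligible members of the label marker, pump and transport lists could be named, as could the 4 largest absolute log2 ratios of any other list, the 12 highest and 12 lowest ratios with Poisson intervals that did not overlap, and 15 typical genes. Named outside this rule, after their values were seen, were other genes of the lists, Egln3 and those used to check the label. Intervals were exact Poisson, Clopper-Pearson or conditional binomial (scipy 1.17.1). Doublet scores came from Scrublet (scanpy 1.11.5), at 0.8% per 1000 cells. The free RNA profile came from barcodes with 1 to 100 UMIs, and its share was taken from 12 control and 8 haplodeficient proximal tubule markers. The size rule was tested on simulated counts. With 1 library a group, groups were not tested. Some genes are not reported here.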

Additional observations from a re-analysis of the deposited data

How the results depend on the processing

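No paired analysis was possible because each group had 1 library and the labels give no replicate numbers. Each result was recomputed under 18 alternatives, 3 of which were added after the data were seen (Aqp6 in place of Slc4a1, no condition on Ptprc, no condition on Slc4a1). With at least 3 Slc4a1 UMIs required, type A cells were 0.910% of control and 0.120% of haplodeficient cells, with 0.667 and 0.15 per type B cell. With the selection applied after thinning to 1000 UMIs, the values were 0.199% and 0.114%, and 0.353 and 0.229. With Aqp6 in place of Slc4a1 they were 2.00% and 0.967%, and 1.47 and 1.21, and with no condition on Slc4a1 3.05% and 1.96%, and 2.23 and 2.46. With no condition on Ptprc the shares were 1.97% and 0.718%, and without Aqp2-bearing cells the control share was 0.772%.

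The number of genes past the 2-fold rule in the higher direction, 67, became 132 after thinning, 37 with Aqp6 in place of Slc4a1, 27 with no condition on Slc4a1, 43 with a pseudocount of 20 CPM and 140 with eligibility at a mean of 10 CPM. In the lower direction, 55 became 115 with at least 3 Slc4a1 UMIs and 203 with eligibility at 10 CPM.

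The transport list median of -0.61 kept its sign in all 18 alternatives. It was -0.13 with at least 3 Slc4a1 UMIs, -0.17 after thinning, -0.73 with no condition on Slc4a1, -0.72 in CPM without mitochondrial genes, -0.67 with median-of-ratios scaling, -0.52 as a mean of per-cell CPM and -0.46 with eligibility at 10 CPM. The V-ATPase median of -0.12 turned to 0.39 with at least 3 Slc4a1 UMIs and 0.0697 after thinning. It was -0.21 without Aqp2-bearing cells, -0.0554 with Aqp6 in place of Slc4a1, -0.0707 with no condition on Ptprc, -0.23 without mitochondrial genes, -0.18 with median-of-ratios scaling, -0.00693 as a mean of per-cell CPM and -0.15 with free RNA subtracted. The median of all eligible genes, 0.06, was -0.05 without mitochondrial genes and 0.18 after thinning.

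Of the 117 named genes, 49 had an absolute log2 ratio of 1 or more, and 20 of these changed sign or came to 0 under at least 1 alternative, as given next. Of the other 68, 39 did so. With at least 3 Slc4a1 UMIs, H2-T23 was at -0.21, Hk2 at -3.00, Hspb1 at -0.67, Iigp1 at -0.0432, Psmb8 at -0.13, Tmsb10 at -0.0307, and Slc4a1 and the label marker median at 0.0035. After thinning, Aqp2 was at 0.0869, Aqp3 at 0.18, Bik at -0.21, Car15 at 1.35, Hk2 at -1.42, Hspb1 at -0.45, Isg15 at -2.68 and Spink12 at 0. Without Aqp2-bearing cells, Apela was at 0.29, Kcne1 at 0.30, Kcnj1 at 0.20 and Kcnj10 at 0.34. Iigp1 was at -0.0922 with Aqp6 in place of Slc4a1. With free RNA subtracted, Kap was at 0, Spink1 at 0.0483 and Ttc36 at 1.14. The cause of these changes was not tested, other than that the definitions with at least 3 Slc4a1 UMIs and with thinned cells rest on 12 and 11 haplodeficient cells. The first of these also selects on Slc4a1 itself, so its Slc4a1 ratio describes the selection. Counts of Slc4a1 were small, with a median of 4 UMIs per control and 2 per haplodeficient cell. Per 10000 UMIs the medians were 2.52 and 1.36.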
